A study of Mus musculus with 16 samples.

Results

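The nuclear encoded subunits of respiratory chain complexes I to V, and the Ndufaf factors that help to assemble complex I, were compared between left (LA) and right (RA) atria of mice. Members were all probes whose annotated gene symbol begins with Nduf, Uqcr, Cox4 to Cox8 or Atp5, or is Sdha, Sdhb, Sdhc or Sdhd. This rule, which uses no measured value, found 107 probes of 85 genes, among the 25697 probes and 16593 named genes of the array. They were 44 probes of complex I, 6 of complex II, 9 of complex III, 22 of complex IV, 18 of complex V and 8 of Ndufaf factors. Ndufa4, which carries a complex I name but belongs to complex IV, was counted with complex IV. Sdha and Ndufa4l2 are not analysed here.

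From 4 mice of the outbred strain MF1 (MF1_12) and 4 of the strain Swiss Agouti (SA_12), RNA of each atrium was run on its own Illumina MouseRef-8 array, which gave 4 LA and 4 RA arrays in each dataset and 16 in all. The labels name no mutation and no treatment, and they give an age of 12 months for both strains, although the methods text of the study names a younger age for the Swiss Agouti mice. A table of the study lists the MF1_12 mice as male and the SA_12 mice as female, so that strain and sex cannot be told apart. The deposited values are normalized log2 values that were set relative to the median of each probe, so that 0 is the middle of the samples and a value gives no level of expression and no detection limit.

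The respiratory chain passes electrons from NADH (complex I) and succinate (complex II) through complex III and cytochrome c to oxygen at complex IV, and complexes I, III and IV pump the protons whose return drives ATP synthesis at complex V. Working heart muscle relies on this system for nearly all of its ATP, and its mitochondria fill much of the cardiomyocyte. Most subunits are encoded in the nucleus, several exist as heart and muscle isoforms beside ubiquitous ones, and dedicated assembly factors insert the subunits and their metal and heme groups. Subunits encoded in mitochondrial DNA are not analysed here.

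No member differed between the atria by more than 1.5-fold at an adjusted p under 0.05, the call rule of the study, in either dataset. The test was limma with Benjamini-Hochberg adjustment over all 25697 probes, and 0.790% of all probes passed this rule in MF1_12 and 0.630% in SA_12. With the adjusted p alone, 0 members passed in MF1_12, where 0.560% of all probes passed towards LA and 0.786% towards RA. In SA_12, 4 members were higher in LA (Uqcrc2, Ndufc1, Ndufb6 and Ndufb5), where 1.00% of all probes passed. In SA_12, 1 member (Cox4i2) was higher in RA, where 1.02% of all probes passed. All of these changes were small, from 1.21-fold to 1.36-fold.

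The 95% interval of the difference lay within 1.5-fold for 98 members (91.6%) in MF1_12, a share equal to that of all probes (91.6%). In SA_12 it lay within 1.5-fold for 103 members (96.3%), against 96.6% of all probes. The fit of MF1_12 did not use the pairing of its atria, described below. With the replicate number as a block, the interval lay within 1.5-fold for 103 members (96.3%) there, against 94.5% of all probes. The number of arrays also limits this precision.

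At an unadjusted p under 0.05, the members of SA_12 were called more often towards LA than the probes of the array as a whole. In SA_12, 26 members (24.3%) were higher in LA against 6.16% of all probes, while 5 members (4.67%) stood higher in RA against 6.47%. The median log2 difference of LA minus RA over the members was 0.07 in SA_12, where that of all probes was 0.001, and 72 members (67.3%) lay above 0, against 50.6% of all probes. The arrays of the sides did not overlap for 14 members higher in LA (3.46% of all probes) and for 2 higher in RA (3.71% of all probes). A gene with several probes counts several times here. Leaving out 1 array at a time gave 16 to 31 members higher in LA, the lowest count without LA replicate 1 and 17 without RA replicate 3. Fitted with an ordinary variance for each probe, 14 members were higher in LA, and 11 when all 16 arrays shared 1 fit. For these other settings the share of all probes was not counted, so that their counts cannot be set against it.

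In MF1_12 the same count showed no such shift. At an unadjusted p under 0.05, 4 members (3.74%) were higher in LA against 5.27% of all probes, and 2 (1.87%) were higher in RA against 5.67%. The median over the members was 0.004 and 54 of 107 lay above 0. The arrays of the sides did not overlap for 2 members higher in LA (3.22% of all probes) and 1 higher in RA (3.77% of all probes).

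This count of MF1_12 changed with LA replicate 2 and with the pairing of the mice. LA replicate 2 deviated from its group mean with an SD of 0.24 over the members, against 0.10 to 0.16 in the other 7 arrays of MF1_12, and 13.1% of its members lay above 0. In the same array some genes of other cells were high. Among them were Lyz2 of macrophages at up to 1.37 (other LA arrays at most 0.30) and Acta2 of smooth muscle at up to 1.11 (at most 0.17). This Lyz2 probe was also at 1.15 and 1.00 in RA replicates 1 and 3, and this Acta2 probe at 0.71 in RA replicate 2. The lowest Lyz2 probe in LA replicate 2 was at 0.07. Of the 2 probes of Col3a1 of fibroblasts, 1 was at 1.79, with LA replicate 1 at 1.72, and the other was at 0.19. Other genes of these cell types were not high there, with Cd163 at 0.05 and -0.41, Dcn at -0.11 and -0.38, Tcf21 at -0.14 and Myh11 at -0.20. Pecam1 of endothelial cells was at -0.32 and -0.33. Without LA replicate 2, 18 members (16.8%) were higher in LA against 6.36% of all probes, and 1 was higher in RA against 6.15%. The median was then 0.07. Without this array, 2 members, Ndufaf4 and Ndufaf1, also passed the adjusted p towards LA, as did 1.28% of all probes. LA and RA arrays of MF1_12 with the same replicate number deviated together, and are taken as atria of the same mouse. With that number as a block, 14 members (13.1%) were higher in LA against 6.86% of all probes, and 3 were higher in RA against 7.07%. In this blocked fit 2 members, Sdhd and 1 probe of Ndufaf5, passed the adjusted p towards LA, where 1.11% of all probes passed. No other array of MF1_12, when left out, gave more than 5 members higher in LA, and the shares of all probes there were not counted.

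The arrays differed in the mean of whole complexes. In MF1_12 the mean of complex I was 0.04, -0.28, 0.06 and -0.05 in LA replicates 1 to 4 and 0.02, -0.17, 0.08 and -0.12 in RA replicates 1 to 4. The atria of mouse 2 were the lowest of their side, and the sides overlapped. In SA_12 the mean of complex I was 0.14, 0.08, 0.08 and -0.04 in LA and 0.01, -0.03, -0.02 and -0.02 in RA, so that LA replicates 1 to 3 lay above all RA arrays and LA replicate 4 lay below them. The mean of complex III in SA_12 was 0.07, 0.03, 0.06 and 0.07 in LA and -0.04, -0.08, -0.07 and -0.04 in RA, with no overlap. The mean of the Ndufaf probes in SA_12 was 0.16, 0.02, 0.06 and 0.00 in LA and -0.04, -0.03, -0.01 and -0.09 in RA. In MF1_12 it was 0.18, 0.03, 0.09 and 0.04 in LA and -0.06, -0.15, -0.08 and -0.07 in RA. The sides of the Ndufaf mean thus did not overlap in either dataset.

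**Figure D1:**
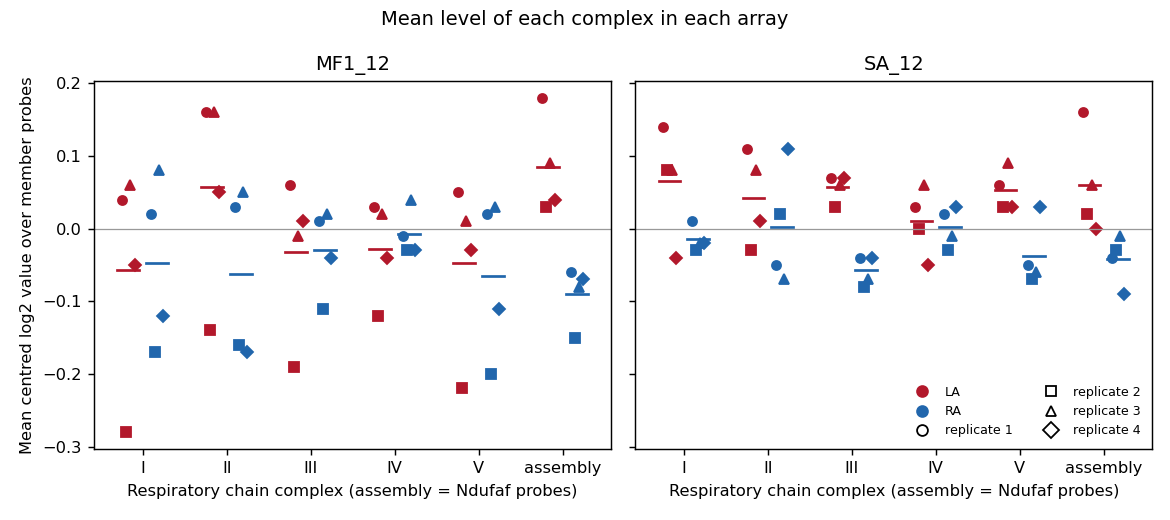
Mean centred log2 value of the member probes of each complex (vertical axis) in each array, for MF1_12 (left panel) and SA_12 (right panel), with LA in red, RA in blue, a symbol for each replicate and a line at the mean of the 4 arrays. LA replicate 2 of MF1_12 is the lowest LA array for complexes I to V and reaches -0.28 in complex I. The LA arrays lie above the RA arrays for complex III in SA_12 and for the assembly factors in both datasets.

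Between the pairs of MF1_12, the median difference of LA minus RA over the members was 0.05 in mouse 1, -0.09 in mouse 2, 0 in mouse 3 and 0.06 in mouse 4. The number of members above 0 was 69, 36, 51 and 71 of 107. Mouse 2 thus lay on the side opposite to mice 1 and 4.

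**Figure D2:**
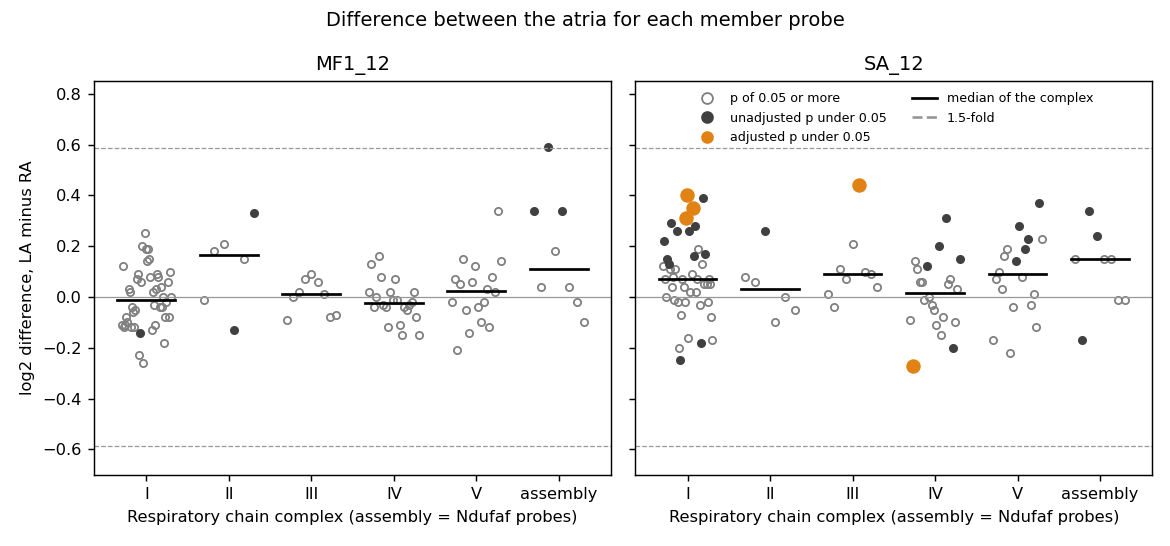
Difference of LA minus RA in log2 units (vertical axis) for each of the 107 member probes, by complex, with filled grey points at an unadjusted p under 0.05, orange points at an adjusted p under 0.05 from limma, a black line at the median and dashed lines at 1.5-fold. The medians of SA_12 lie between 0.02 for complex IV and 0.15 for the assembly factors, and those of MF1_12 between -0.03 for complex IV and 0.17 for complex II.

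The promoters of 3 members whose difference is described below are given. Nuclear respiratory genes are known to share sites for NRF1 and for ETS factors such as NRF2 (GABP). Of the 85 member genes, 70 had an upstream sequence in the RefSeq table used (GRCm38.p6), and the 250 bases before the annotated start were searched on both strands. The NRF1 motif, GCGC followed by any base and TGCGC, was found in 10 of the 70 member genes (14.3%) and in 3.86% of all 27025 promoters. The ETS motif CCGGAAG was found in 12 (17.1%) and in 7.05% of all promoters, and TATAAA in 6 (8.57%) and in 13.0% of all promoters. Among 21 member genes with a probe at an unadjusted p under 0.05 towards LA in SA_12, 3 (14.3%) held the NRF1 motif and 4 (19.0%) the ETS motif, and among the other 49 genes 7 (14.3%) and 8 (16.3%) did. TATAAA was found in 3 of the 21 (14.3%) and in 3 of the 49 (6.12%). The 49 include genes with a probe towards RA or with a difference in MF1_12 alone. A match describes the letters only. The 3 promoters printed here all hold an NRF1 or ETS motif. Those of Ndufc1, Ndufb5 and Atp5o, also described below, were searched and held neither. In the 250 bases printed here, 5′ to 3′ along the gene, capitals mark the NRF1 motif of Ndufaf4, the NRF1 and then the ETS motif of Sdhd, and the ETS motif of Ndufb6. In Sdhd and Ndufb6 the marked letters match the motif on the opposite strand.
Ndufaf4 (chr4:24897833-24898082, plus strand): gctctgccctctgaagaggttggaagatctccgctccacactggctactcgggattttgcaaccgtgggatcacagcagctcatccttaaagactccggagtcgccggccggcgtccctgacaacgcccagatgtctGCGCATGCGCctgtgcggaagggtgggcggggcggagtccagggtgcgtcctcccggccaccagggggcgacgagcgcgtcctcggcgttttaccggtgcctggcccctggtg
Sdhd (chr9:50603850-50604099, minus strand): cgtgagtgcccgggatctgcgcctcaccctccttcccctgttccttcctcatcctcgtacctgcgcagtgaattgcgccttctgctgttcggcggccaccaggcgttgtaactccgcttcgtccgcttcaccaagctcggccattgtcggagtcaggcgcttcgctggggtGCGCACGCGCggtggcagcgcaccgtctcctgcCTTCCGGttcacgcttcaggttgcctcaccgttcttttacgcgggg
Ndufb6 (chr4:40279422-40279671, minus strand): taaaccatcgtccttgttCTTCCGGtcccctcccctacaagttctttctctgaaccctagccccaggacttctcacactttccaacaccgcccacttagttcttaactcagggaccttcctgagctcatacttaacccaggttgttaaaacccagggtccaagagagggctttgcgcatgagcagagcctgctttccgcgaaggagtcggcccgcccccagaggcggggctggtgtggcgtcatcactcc

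Complex I, the NADH dehydrogenase, held 3 of the 4 members that rose in LA in SA_12. Of its 44 probes, 13 reached an unadjusted p under 0.05 towards LA and 2 towards RA in SA_12, where 6.16% and 6.47% of all probes did. In MF1_12 0 did towards LA and 1 towards RA, against 5.27% and 5.67% of all probes. The median difference was 0.07 in SA_12 and -0.01 in MF1_12. By part of the complex, the median in SA_12 was 0.06 over 6 probes of the core subunits, which carry the flavin and the iron-sulfur clusters. It was 0.11 over 14 Ndufa probes, 0.03 over 12 Ndufb probes and 0.28 over 3 Ndufc probes, all accessory subunits. All 3 Ndufc probes, which are of 2 genes, reached an unadjusted p under 0.05 towards LA in SA_12. In MF1_12 the medians were -0.05 for the core, -0.07 for Ndufa, 0.11 for Ndufb and -0.03 for Ndufc probes. The order of the parts thus differed between the datasets.

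Ndufc1, a small accessory subunit of the membrane arm, stood in SA_12 at 0.16, 0.24, 0.36 and 0.24 in LA and -0.15, -0.13, -0.15 and 0.02 in RA, with no overlap. Its difference was 0.35 (standard error, SE, of the log2 difference 0.06, 1.28-fold, adjusted p = 0.0148 from limma, n = 4 and 4). In MF1_12 it was -0.13 (SE 0.09, adjusted p = 0.738 from limma). Its second probe was 0.16 higher in LA in SA_12 (SE 0.07, adjusted p = 0.348 from limma), the same side with a smaller difference.

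Ndufb6, an accessory subunit of the membrane arm, stood in SA_12 at 0.29, 0.28, 0.46 and 0.09 in LA and -0.09, -0.28, -0.04 and -0.09 in RA. All LA arrays lay above all RA arrays, with a difference of 0.40 (SE 0.08, 1.32-fold, adjusted p = 0.0314 from limma). The second Ndufb6 probe went the other way in SA_12, at -0.16 (SE 0.15, adjusted p = 0.767 from limma), so that the probes of this gene disagreed.

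Ndufb5, another subunit of the membrane arm, stood in SA_12 at 0.26, 0.24, 0.26 and 0.16 in LA and 0.02, -0.26, 0.00 and -0.10 in RA, again with no overlap. Its difference was 0.31 (SE 0.07, 1.24-fold, adjusted p = 0.0412 from limma). In MF1_12 it was 0.25, the largest of complex I towards LA, but with an SE of 0.19 (adjusted p = 0.727 from limma). Both atria of mouse 2 were low there, at -0.23 in LA and -0.48 in RA. Within each of the 4 mice LA was above RA, by 0.13, 0.25, 0.33 and 0.30. With the replicate number as a block the SE was 0.06 and the adjusted p was 0.0794 from limma.

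Towards RA, complex I showed less. Ndufb11, an X-linked subunit of the membrane arm, had the largest difference of complex I towards RA in SA_12, at -0.25 (SE 0.09, adjusted p = 0.234 from limma), and stood at -0.23 (SE 0.11, adjusted p = 0.499) in MF1_12. Its other probe was at -0.07 in SA_12 and -0.14 in MF1_12, so that all 4 values of this gene lay on the RA side. In MF1_12 the largest difference towards RA was that of Ndufb4, at -0.26 (SE 0.17, adjusted p = 0.694). It rested on LA replicate 2 at -0.71, beside -0.09 to 0.19 in the other LA arrays.

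The probe annotated to Ndufs5-ps, a pseudogene that can share sequence with Ndufs5, was 0.39 higher in LA in SA_12 (SE 0.09, adjusted p = 0.0688 from limma), and which of these transcripts it measures is uncertain. Of the 16 member genes with several probes, 8 had all of them on the same side in MF1_12 and 8 in SA_12.

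Ndufa13, a subunit also known as GRIM-19, had the widest spread of any member in SA_12. It stood at 1.00, 0.14, -0.25 and 0.16 in LA and at -0.02, 1.11, -0.04 and 0.00 in RA. The high arrays were LA replicate 1 and RA replicate 2, 1 on each side, and the difference was 0.00 (SE 0.30). In deviations from the group means over all probes, LA replicate 1 correlated most with RA replicate 2 (0.231). Whether both arrays are of 1 mouse is not known. In MF1_12 the arrays of Ndufa13 lay between -0.43 and 0.10. Ndufa13 and Ndufs5-ps were chosen after their values were seen.

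Complex II, the succinate dehydrogenase that links the citric acid cycle to the chain, was measured by 6 probes of Sdhb, Sdhc and Sdhd. Its median difference was 0.17 in MF1_12 and 0.03 in SA_12. Sdhd, which anchors the enzyme in the inner membrane, had the largest difference of complex II towards LA in MF1_12. It stood at 0.40, -0.05, 0.22 and 0.44 in LA and at 0.07, -0.39, -0.03 and 0.03 in RA. The sides overlapped across mice, while within each of the 4 mice LA was above RA, by 0.34, 0.34, 0.25 and 0.41. The difference of 0.33 had an SE of 0.13 and an adjusted p of 0.389 from limma, and with the replicate number as a block the adjusted p was 0.0278. In SA_12 Sdhd was at -0.05 (SE 0.09, adjusted p = 0.887 from limma).

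The other anchor, Sdhc, had probes on opposite sides in MF1_12, at -0.13 (SE 0.06) and 0.15 (SE 0.08), with adjusted p of 0.428 and 0.535 from limma. The first of these was also the largest of complex II towards RA in SA_12, at -0.10 (SE 0.05, adjusted p = 0.411). The 3 probes of Sdhb, the iron-sulfur subunit, ranged from -0.01 to 0.21 in MF1_12 and from 0.06 to 0.26 in SA_12, and the lowest adjusted p among these values was 0.381.

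Complex III, which hands electrons from ubiquinol to cytochrome c, had 8 of 9 probes above 0 in SA_12 and 5 of 9 in MF1_12, with medians of 0.09 and 0.005. Uqcrc2, a core protein of the matrix side, had the largest difference of all members in SA_12. It stood at 0.38, 0.13, 0.20 and 0.33 in LA and at -0.15, -0.11, -0.12 and -0.35 in RA, and the sides did not overlap. The difference was 0.44 (SE 0.07, 1.36-fold, adjusted p = 0.0128 from limma). In MF1_12 the same probe was at 0.06 (SE 0.11, adjusted p = 0.91 from limma).

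Uqcrc1, the partner core protein, stood in SA_12 at 0.33, -0.21, 0.03 and 0.15 in LA and at -0.31, -0.01, -0.17 and -0.07 in RA, with overlap. Its difference was 0.21 (SE 0.11, adjusted p = 0.473 from limma) there and 0.09 (SE 0.10, adjusted p = 0.846) in MF1_12, the largest of complex III towards LA in that dataset. Towards RA, the largest values were those of Uqcr10, a small subunit, at -0.09 (SE 0.11) in MF1_12 and -0.04 (SE 0.06) in SA_12 from different probes, with adjusted p of 0.855 and 0.869 from limma.

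The calls of SA_12 were unequally stable. Over 14 other settings or arrays left out, Uqcrc2 kept its adjusted p under 0.05 in 13 and lost it with an ordinary variance for each probe (0.134). Ndufc1 kept it in 11, Ndufb6 in 4, Ndufb5 in 4 and Cox4i2 in 3, with highest adjusted p of 0.116, 0.201, 0.511 and 0.166. None of these 5 probes changed sign.

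**Figure D3:**
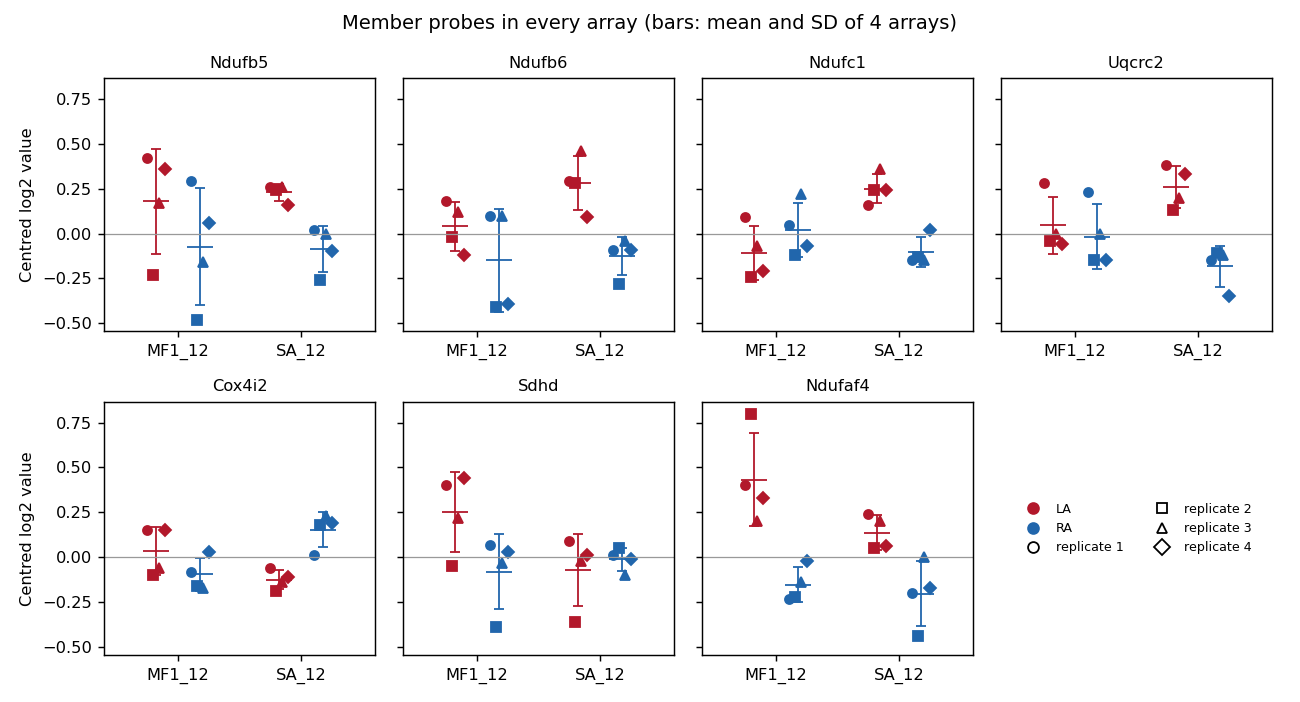
Centred log2 value (vertical axis) of 7 member probes in every array of MF1_12 and SA_12, with LA in red, RA in blue, a symbol for each replicate, and bars for the mean and SD of 4 arrays. In SA_12 the LA arrays lie above the RA arrays for Ndufb5, Ndufb6, Ndufc1 and Uqcrc2, from 0.13 to 0.38 against -0.35 to -0.11 for Uqcrc2, and below them for Cox4i2, while Ndufaf4 is separated in both datasets.

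Complex IV, cytochrome c oxidase, which reduces oxygen to water, had the lowest median of the 5 complexes in both datasets. Of its 22 probes 11 lay above 0 in SA_12 and 8 in MF1_12, with medians of 0.02 and -0.03. Cox4i2, the isoform of subunit 4 known from lung and for its induction by low oxygen, was the member with the largest difference towards RA in SA_12. It stood at -0.06, -0.19, -0.14 and -0.11 in LA and at 0.01, 0.18, 0.23 and 0.19 in RA, so that all RA arrays lay above all LA arrays. The difference was -0.27 (SE 0.06, 1.21-fold higher in RA, adjusted p = 0.0404 from limma). In MF1_12 it was 0.13 (SE 0.08, adjusted p = 0.628 from limma). Cox4i1, the ubiquitous isoform, was at -0.09 (SE 0.05, adjusted p = 0.55) in SA_12 and 0.02 (SE 0.09, adjusted p = 0.971) in MF1_12.

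Of the heart and muscle isoforms, Cox7a1 was 0.20 higher in LA in SA_12 (SE 0.06, adjusted p = 0.178 from limma), and its ubiquitous partner Cox7a2 was at -0.15 (SE 0.10, adjusted p = 0.617). In MF1_12 they were at -0.01 (SE 0.14) and -0.11 (SE 0.17). Cox6a2, the muscle isoform of subunit 6a, was at -0.01 (SE 0.07) in SA_12 and -0.03 (SE 0.08) in MF1_12. Cox8b, the muscle isoform of subunit 8 in mice, was at -0.10 (SE 0.08) and 0.02 (SE 0.13), and the ubiquitous Cox8a was at -0.20 (SE 0.07, adjusted p = 0.227) in SA_12 and -0.02 (SE 0.06) in MF1_12. The third isoform of this subunit, Cox8c, known from testis, was at 0.03 (SE 0.04) and -0.08 (SE 0.04). No isoform of this complex but Cox4i2 passed the adjusted p in either dataset, and muscle isoforms lay on either side.

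The testis isoform Cox6b2 ranged from -0.05 to 0.02 over its 2 probes in both datasets, and the ubiquitous Cox6b1 from -0.12 to 0.12. Cox7a2l, which helps to join complexes III and IV into supercomplexes, was at -0.15 (SE 0.13) in MF1_12 and -0.08 (SE 0.12) in SA_12. Ndufa4 was at -0.15 (SE 0.12, adjusted p = 0.782 from limma) in MF1_12 and 0.15 (SE 0.07, adjusted p = 0.368) in SA_12. Cox7b, a small structural subunit, had the largest difference of complex IV towards LA in SA_12, at 0.31 (SE 0.07, adjusted p = 0.0558 from limma). Its adjusted p was 0.0228 without LA replicate 1.

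**Figure D4:**
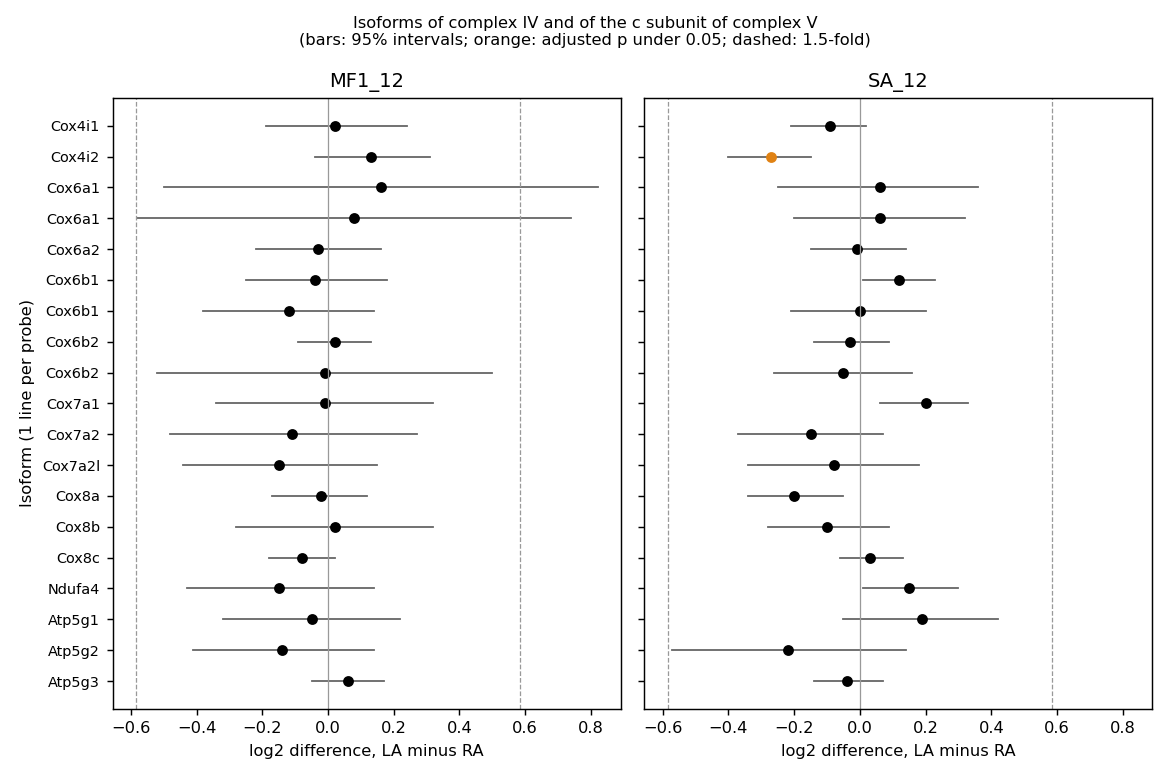
Difference of LA minus RA in log2 units (horizontal axis) with its 95% interval for each probe of the isoforms of complex IV, of Ndufa4 and of the c subunit of complex V, in MF1_12 (left) and SA_12 (right), with dashed lines at 1.5-fold. Cox4i2 in SA_12, at -0.27, is the only probe with an adjusted p under 0.05, and the intervals of both Cox6a1 probes in MF1_12 are the widest.

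Cox6a1, the ubiquitous isoform of subunit 6a, differed between single arrays more than between the sides. Its first probe stood in MF1_12 at -0.01, 1.13, -0.10 and -0.39 in LA and at -0.06, 0.05, 0.23 and -0.23 in RA, and its second probe at -0.13, 1.07, -0.09 and -0.48 in LA. LA replicate 2, the array in which most members were low, was by far the highest for both probes. The difference was 0.16 (SE 0.29) and 0.08 (SE 0.29), with adjusted p of 0.923 and 0.969 from limma. The same array had Cox6a2 at -0.33, beside 0.00 to 0.02 in the other LA arrays.

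**Figure D5:**
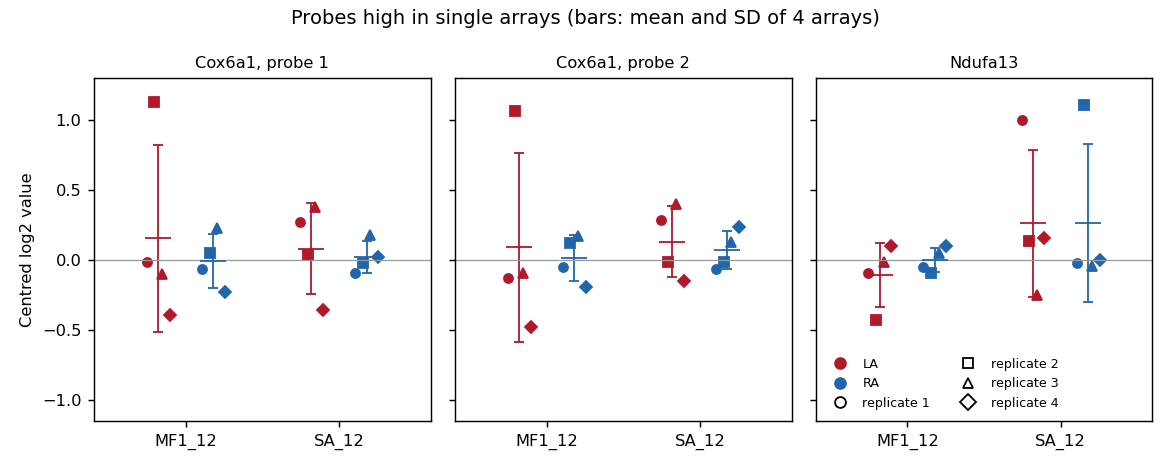
Centred log2 value (vertical axis) of the 2 Cox6a1 probes and of Ndufa13 in every array, with LA in red, RA in blue, a symbol for each replicate, and bars for the mean and SD of 4 arrays. Cox6a1 reaches 1.13 and 1.07 in LA replicate 2 of MF1_12, and Ndufa13 reaches 1.00 in LA replicate 1 and 1.11 in RA replicate 2 of SA_12.

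Complex V, the ATP synthase, had a median difference of 0.09 in SA_12 and 0.02 in MF1_12. Of its 18 probes, 5 reached an unadjusted p under 0.05 towards LA and 0 towards RA in SA_12 (6.16% and 6.47% of all probes), and 0 on either side in MF1_12 (5.27% and 5.67% of all probes). Atp5o, the subunit of the stalk that confers oligomycin sensitivity, had the largest difference of the complex towards LA in both datasets. In SA_12 it stood at 0.55, 0.24, 0.45 and 0.01 in LA and at -0.01, -0.08, -0.07 and -0.07 in RA, so that LA replicate 4 lay just above the RA arrays. The difference was 0.37 (SE 0.10, adjusted p = 0.119 from limma), and without LA replicate 4 it was 0.47 (adjusted p = 0.00958). In MF1_12 it was 0.34 (SE 0.17, adjusted p = 0.548 from limma), where RA replicates 2 and 4 were low, at -0.47 and -0.61.

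The 5 probes of the F1 head had a median of 0.07 in SA_12 and 0.05 in MF1_12. Atp5c1, its central shaft, had the largest difference of the complex towards RA in MF1_12, at -0.21 (SE 0.11, adjusted p = 0.578 from limma). LA replicate 2 was again the low array, at -0.45 beside 0.00 to 0.03. The 3 genes that encode the identical c subunit of the rotor did not move as a group. In SA_12 Atp5g1 was at 0.19 (SE 0.10), Atp5g2 at -0.22 (SE 0.16), the largest towards RA, and Atp5g3 at -0.04 (SE 0.05), with adjusted p of 0.537, 0.679 and 0.859 from limma. In MF1_12 they were at -0.05, -0.14 and 0.06.

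The Ndufaf assembly factors, which are not part of the finished complex I, held the largest difference of any member. Ndufaf4 was the only member at an unadjusted p under 0.05 towards LA in both datasets in the fit without the block, against 1.63% of all probes. With the block in MF1_12, 7 members did, against 2.09% of all probes. These were Ndufaf4, Ndufb5, Ndufb7, Atp5o and 1 probe each of Ndufb6, Sdhb and Ndufaf5. In MF1_12 it stood at 0.40, 0.80, 0.20 and 0.33 in LA and at -0.23, -0.22, -0.14 and -0.02 in RA. In SA_12 it stood at 0.24, 0.05, 0.20 and 0.06 in LA and at -0.20, -0.44, 0.00 and -0.17 in RA. The sides did not overlap in either dataset.

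Ndufaf4 differed by 0.59 in MF1_12 (SE 0.12, adjusted p = 0.0608 from limma) and by 0.34 in SA_12 (SE 0.09, 1.26-fold, adjusted p = 0.101). In MF1_12 its highest value was that of LA replicate 2. Without that array the difference was 0.46 and the adjusted p 0.0144, and with the block the adjusted p was 0.0623. It also passed in MF1_12 with all 16 arrays in 1 fit (adjusted p = 0.00837), the only setting in which any member passed both the fold and the adjusted p.

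The other assembly factors differed less. Ndufaf1 was at 0.34 (SE 0.13, adjusted p = 0.392 from limma) in MF1_12 and at 0.48 (adjusted p = 0.017) there without LA replicate 2, and at 0.15 (SE 0.08, adjusted p = 0.523) in SA_12. The probes of Ndufaf5 were at 0.34 (SE 0.10) and 0.18 (SE 0.09) in MF1_12, with adjusted p of 0.172 and 0.56, and at 0.15 and 0.24 in SA_12. With the block, the first of these had an adjusted p of 0.0424 in MF1_12. The 3 probes of Ndufaf7, a methyltransferase that acts on a complex I subunit, ranged from -0.10 to 0.04 in MF1_12 and from -0.01 to 0.15 in SA_12. Ndufaf3 was at -0.17 in SA_12 (SE 0.06, adjusted p = 0.219). These other factors were chosen after their values were seen.

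Whether the atria differed in another way in MF1_12 than in SA_12 was tested with the interaction of side and dataset over all 16 arrays. No member passed the adjusted p, where 0.00778% of all probes did. At an unadjusted p under 0.05, 4 members lay more to LA in MF1_12 (3.56% of all probes) and 9 lay more to LA in SA_12 (3.82% of all probes). The lowest values of p were those of Cox4i2, with a difference of 0.41 between the datasets (SE 0.10, adjusted p = 0.24 from limma), and of Ndufc1, with -0.48 (SE 0.11, adjusted p = 0.247). Uqcrc2 followed at -0.38 (SE 0.13, adjusted p = 0.53), and then Ndufs7, a core iron-sulfur subunit, at -0.35 (SE 0.14, adjusted p = 0.584). Here a positive value means more to LA in MF1_12. Of the 107 members, 38 lay towards LA and 19 towards RA in both datasets, and of all 25697 probes 7207 and 7068 did.

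Other genes of oxidative phosphorylation came from lists that the rule did not use. Of 31 probes of 16 genes of electron carriers and dehydrogenases, 2 passed the adjusted p in SA_12, both higher in LA, and 0 in MF1_12, where 1.00% and 0.560% of all probes passed towards LA. They were a probe of Cycs, which is cytochrome c, and a probe of Etfa, which brings electrons from fatty acid oxidation. The Cycs probe was at 0.26 (SE 0.05, adjusted p = 0.0282 from limma) and the Etfa probe at 0.40 (SE 0.07, adjusted p = 0.0243). The second Cycs probe was at 0.07 in SA_12 (SE 0.11, adjusted p = 0.877 from limma), and the other Etfa probes at 0.19 to 0.25. The median of this list was 0.14 in SA_12 and 0.05 in MF1_12.

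Of 61 probes of 42 further assembly factors, 3 passed the adjusted p in SA_12 and 2 in MF1_12, all higher in LA, against 1.00% and 0.560% of all probes, and the median was 0.08 and 0.09. Cox10, which makes the heme of complex IV, passed in both datasets, and in MF1_12 with the 1.5-fold limit too, at 0.59 in MF1_12 (SE 0.10, adjusted p = 0.0335 from limma) and at 0.31 in SA_12 (SE 0.07, adjusted p = 0.044). The others were Timmdc1, a complex I factor, at 0.39 in MF1_12 (SE 0.06, adjusted p = 0.021), and in SA_12 Cox17, a copper chaperone, at 0.33 (SE 0.07, adjusted p = 0.0378) and Cox14 at 0.29 (SE 0.06, adjusted p = 0.0408). In the other dataset Timmdc1 was at 0.14 (SE 0.47), with SA_12 arrays from -1.67 to 0.27, Cox17 at -0.02 (SE 0.08) and Cox14 at 0.19 (SE 0.12). Of 26 probes of 21 regulators of mitochondrial genes, among them Ppargc1a, Nrf1 and Tfam, 0 passed in either dataset. At an unadjusted p under 0.05, 3 of these lay towards LA and 0 towards RA in MF1_12 (5.27% and 5.67% of all probes), and 4 and 1 in SA_12 (6.16% and 6.47%).

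RNA of other cells moved with the sides in some arrays, and its part in these results was not tested. In bulk tissue, fewer cells of a type and less RNA per cell cannot be told apart, and since the values are centred, the presence of atrial markers could not be checked by level. Over 12 probes of 9 cardiomyocyte genes the median difference was 0.01 in SA_12 and -0.02 in MF1_12, and the array means in SA_12 were -0.08 to 0.07 in LA and -0.11 to 0.09 in RA. In SA_12, 1 probe of Myh6 (0.29, adjusted p = 0.0177 from limma) and Ryr2 (0.26, adjusted p = 0.0477) passed towards LA and Tnni3 (-0.27, adjusted p = 0.0297) towards RA. The second Myh6 probe was at -0.06 there (SE 0.19, adjusted p = 0.952). In MF1_12, 0 of these probes passed. The 2 probes of Actc1 were at 0.41 and 0.64 there (adjusted p = 0.0889 and 0.1 from limma), and at 0.14 and -0.19 in SA_12. Myl2, the ventricular light chain, stood in SA_12 at 0.45, 4.38, 4.10 and 5.62 in RA and between -0.83 and -0.40 in LA, so that RA replicates 2 to 4 were high. The ventricular list as a whole did not follow it, with a median of 0.03 and 4 of 7 probes above 0 in SA_12, and Myl3 at -0.16 (SE 0.21). In MF1_12 the median of this list was -0.09, with 3 of 7 above 0. Lrrc10 passed fold and adjusted p towards LA there (0.62, SE 0.11, adjusted p = 0.0368 from limma). Myl3 was at 1.36 (SE 0.31, adjusted p = 0.0856) and Myl2 at -1.08 (SE 0.40, adjusted p = 0.339) in MF1_12. Leaving out RA replicate 2, 3 or 4 gave 18, 17 and 22 members higher in LA in SA_12, and the shares of all probes there were not counted. Adipoq, a fat cell gene, was at 3.11 in RA replicate 4 of SA_12, and at 1.26 and 1.59 in LA and RA of mouse 2 of MF1_12. The other probes of the white adipocyte list lay between -0.04 and 0.11 in these atria of mouse 2. In RA replicate 4 of SA_12, Lep was at 0.81, Plin1 at 0.40, Fabp4 at 0.01 and Retn at 0. This list had a median difference of -0.06 in SA_12 and 0.02 in MF1_12. The array means of 12 probes of smooth muscle and pericyte genes were -0.24 to 0.76 in LA and -0.15 to 0.08 in RA of SA_12. Their median difference there was 0.37, with 9 of 12 above 0. At an unadjusted p under 0.05, 2 lay towards LA and 0 towards RA (6.16% and 6.47% of all probes). Rgs5 among them was 1.10 higher in LA (SE 0.19, adjusted p = 0.0152 from limma). Other genes of the list did not follow it, with Kcnj8 at 0.05, Cnn1 at -0.07 and the Abcc9 probes from -0.15 to 0.03. Some other lists lay towards RA. In SA_12 the median was -0.50 over 8 macrophage probes, 6 of them at an unadjusted p under 0.05 towards RA, and -0.84 over 3 erythroid probes, all 3 of them so. Mesothelial and epicardial probes had a median of -0.30 in SA_12 (3 of 8 so) and -0.66 in MF1_12 (6 of 8 so), where 4 also passed fold and adjusted p. In MF1_12 the macrophage median was -0.17 and the erythroid median -0.50, with 1 and 0 probes so. The endothelial list was mixed in MF1_12, with a median of 0.04 and 4 of 7 probes above 0. In SA_12 its median was -0.07, with 1 of 7 above 0. Of this list, 1 probe of Pecam1 passed the adjusted p towards RA in each dataset. The values were -0.61 in MF1_12 and, for another probe, -0.52 in SA_12.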

How the data were processed

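Total RNA of LA and RA was labelled and hybridized to 16 arrays. Signals were extracted in Genome Studio, and in GeneSpring the authors applied quantile normalization to each dataset and a baseline at the median of each probe. The log2 values that they deposited after these steps were used as they are. A table of 32 columns of signals and detection values before normalization was not used, since its columns could not be tied to samples, so that a filter on dim probes could not be run. Groups and replicate numbers came from the labels. Probes were named by the platform annotation (23978 of 25697). For each dataset, limma 3.58.1 (R 4.3.3) was fitted to all probes without a block by lmFit and eBayes, LA minus RA, p-values were adjusted by the Benjamini-Hochberg method, and the interaction was fitted on 16 arrays as 4 groups. Folds are given for the higher side, the standard error (SE) is that of the log2 difference, and p-values measure the spread between 4 mice of each dataset. In their deviations from the group means, same-numbered LA and RA arrays correlated at 0.23 to 0.499 in MF1_12, above every other number (at most 0.0203), so that the numbers were taken as pairs there. Alternatives were the replicate block, all arrays in 1 fit, an ordinary variance, array weights, centred arrays, all arrays quantile normalized together, probes of a gene averaged, the adjusted p alone and each array left out. The members and lists were chosen with earlier results of these data known. Members named were those with an adjusted p under 0.05, the largest of each complex on each side, those called in both datasets, the 4 lowest p of the interaction, and the isoforms and Sdh genes, and others are said to be chosen after their values were seen. The fitting code was tested on simulated data. Motifs were searched in RefSeq promoters.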

Additional observations from a re-analysis of the deposited data

Results flagged for a closer look

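Each of 39 named probes and 7 means of complexes was looked at in the 4 groups, 184 groups in all, for an array whose gap to the next was large for the range of its group (Dixon's test at 95% for 4 arrays). Chance gives about 1 in 20 groups if they are independent, and 12 were found, a share not far above that rate. The groups are not independent, since the probes share arrays and the means hold named probes. The rate therefore does not measure chance here. In LA of MF1_12, replicate 2 was apart for 7 probes, and all 7 were low there. Its value was -0.17 for a probe of Sdhc (others 0.09 to 0.13), -0.34 for Uqcrc1 (others 0.01 to 0.07) and -0.34 for Cox4i1 (others 0.01 to 0.03). It was -0.33 for Cox6a2, -0.33 for a probe of Cox6b1, -0.53 for Cox7a1 and -0.45 for Atp5c1. In the same group replicate 1 was apart for Uqcrc2, at 0.28 (others -0.06 to 0). In RA of SA_12, replicate 4 was apart for 2 probes that passed the adjusted p, Ndufc1 at 0.02 (others -0.15 to -0.13) and Uqcrc2 at -0.35 (others -0.15 to -0.11). Replicate 1 was apart there for Cox8c at 0 (others -0.06 to -0.05) and for Atp5o at -0.01 (others -0.08 to -0.07), gaps that are small in log2 units.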

How the results depend on the processing

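The number of members called moved with the processing more than the differences did. Shares of all probes were counted only for the unblocked fit of each dataset, the block in MF1_12 and MF1_12 without LA replicate 2. The counts of other settings have no such share beside them, and whether all probes moved likewise is not known. The median over the members lay between -0.02 and 0.07 in MF1_12 and between 0.05 and 0.09 in SA_12 over all settings. In MF1_12, 4 members reached an unadjusted p under 0.05 towards LA. The count was 14 with the replicate block, 7 with all arrays in 1 fit, 8 with array weights, 7 with all arrays quantile normalized together, and 23 with the block and mouse 2 left out, a setting chosen after seeing the data. Leaving out 1 array gave 2 to 18. Towards RA the count of 2 became 5 with all arrays in 1 fit, and 1 each with array weights, centred arrays, joint quantile normalization and probes of a gene averaged. Leaving out 1 array gave 0 to 3. With all arrays in 1 fit, 1 member passed fold and adjusted p in MF1_12. In SA_12 the count of 0 became 5 with the adjusted p alone. The 26 members higher in LA became 11 with all arrays in 1 fit and 14 with an ordinary variance, and 16 to 31 with 1 array left out. The 5 higher in RA became 8 with the replicate block, and 4 to 8 with 1 array left out. The replicate numbers of SA_12 share only a number, since the deviations of same-numbered arrays correlated at -0.112 to 0.138, those of other numbers at 0.33 at most, and only 1 LA array correlated best with its own number. The block there gave 25 members higher in LA. No named probe that passed changed sign under any setting. Over all named probes and settings, a call was lost 35 times and gained 9 times. The cause of these changes was not tested. A filter on dim probes was not run, and with centred values no signal over background is known, which limits what small differences of dim probes can show.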
